A study of Mus musculus with 12 samples.

Results

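The centromere-proximal ends of the 19 mouse autosomes were examined in ATAC-seq peak lists of embryonic stem cells (ESCs). Mouse autosomes carry the centromere at 1 end, where the mm10 assembly holds a gap over the first 3 Mb, so the sequence between 3 Mb and 6 Mb is the assembled part of each chromosome nearest to its centromere. A peak was counted as an end peak when its summit lay below 6 Mb on chromosomes 1 to 19. This took 17013 of 438517 peaks (3.88%) over 12 libraries. ATAC-seq uses a transposase that cuts open chromatin and tags the cut ends, so a peak marks an accessible stretch of DNA. The ESCs belonged to 2 lines, WT and Suv39h dn, and Suv39h dn cells lack both Suv39h1 and Suv39h2. Each line was assayed in 3 preparations, as asynchronous ESCs, as mitotic ESCs arrested with demecolcine, and as mitotic chromosomes purified by flow sorting, with 2 libraries in each of the 6 groups. All cells were grown in serum with LIF, and the mitotic cells and the sorted chromosomes had both passed through the demecolcine arrest. Each genotype is 1 line, so differences between genotypes cannot be told apart from differences between lines, and nothing in the labels says that the 2 libraries of a group came from separate cultures, so p values measure the spread between these libraries.

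Next to the centromere of each mouse chromosome lies the major satellite, a tandem array of short AT-rich units that is almost wholly missing from the assembly. Suv39h1 and Suv39h2 write H3K9 trimethylation, which is densest on this satellite, where it binds HP1 proteins and holds the DNA in compact heterochromatin. The assembled sequence beyond the gap contains ordinary genes, gene families copied in tandem and stray pieces of satellite.

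The satellite pieces are shown because their summits held many more fragments than those of the other end peaks in every library. On chromosome 9 the first 38 kb after the gap, chr9:3000001-3038000, repeated itself with a period of 234 bp, and 55.7% to 81.7% of bases were identical 1 period apart over the 10 steps of 4 kb that cover it. Bins of 1 kb on chromosomes 4, 11 and 12 that shared at least 100 words of 16 bases with this block were counted with it as satellite. The end region called in all libraries that ranked highest by fold was such a piece, chr12:3109872-3110105, an intergenic stretch of 234 bases on chromosome 12. Its sequence is set beside the closest ungapped stretch of the chromosome 9 block, the reverse strand of chr9:3000394-3000627, which was 97.9% identical. Capitals mark the 5 bases that differ.
satellite_12: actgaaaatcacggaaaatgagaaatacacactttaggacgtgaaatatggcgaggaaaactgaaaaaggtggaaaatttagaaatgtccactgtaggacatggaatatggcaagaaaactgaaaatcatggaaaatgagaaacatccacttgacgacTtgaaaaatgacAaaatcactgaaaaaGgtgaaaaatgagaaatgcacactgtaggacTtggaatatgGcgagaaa
satellite_9: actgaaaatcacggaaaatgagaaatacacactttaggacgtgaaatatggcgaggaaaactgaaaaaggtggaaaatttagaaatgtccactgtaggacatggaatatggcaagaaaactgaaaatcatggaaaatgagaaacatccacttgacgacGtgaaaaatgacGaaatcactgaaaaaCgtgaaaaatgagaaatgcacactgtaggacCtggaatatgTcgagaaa

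The lists held between 1746 and 80602 peaks. The list of Suv39h dn mitotic ESCs replicate 1 stood apart with 1746 peaks, against 6495 to 14328 in the other mitotic libraries, and the comparisons that it moves most are given with and without it. The relative depth, read from the lowest background of each library, lay between 0.149 and 0.328 fragments per base. Of 10 promoters of stem cell marker genes, 5 to 8 had a peak in the asynchronous libraries, 0 to 4 in the mitotic libraries and 4 to 8 in the sorted chromosomes. Of 10 promoters of genes of other cell types, 2 to 6, 0 to 2 and 3 to 6 had one. Promoters of both kinds were open, and Col1a1, Thy1 and Alb had no peak in any library.

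End peaks made up a larger share of the lists of mitotic ESCs and sorted chromosomes than of asynchronous ESCs. In asynchronous ESCs the ends held 3.42% and 2.79% of the WT peaks (765 and 1590 peaks) and 3.55% and 2.85% of the Suv39h dn peaks (889 and 2296). For mitotic ESCs the WT lists gave 4.67% and 3.96% (303 and 528 peaks), and the Suv39h dn lists gave 8.88% and 4.10% (155 and 588). For sorted chromosomes the WT lists gave 4.28% and 4.38% (1982 and 2937 peaks), and the Suv39h dn lists gave 4.66% and 4.92% (2773 and 2207). The 4 asynchronous shares lay below all 8 others. This was not particular to the centromere-proximal ends. The telomere-proximal 3 Mb of the autosomes held 2.90% to 3.27% of the asynchronous lists, 3.39% to 4.64% of the mitotic lists and 3.42% to 4.10% of the sorted chromosome lists. The exact 95% binomial interval of a share, which covers counting error only, was widest in the Suv39h dn mitotic replicate 1 list, from 7.58% to 10.3%.

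The share of mitotic ESCs exceeded that of asynchronous ESCs by 0.70 on the log2 scale (exact two-sided permutation test over 8 libraries, p = 0.0429 adjusted over 3 pairs of preparations by the Benjamini-Hochberg method). Sorted chromosomes exceeded asynchronous ESCs by 0.54 (exact permutation test, adjusted p = 0.0429), and both unadjusted p values were 0.0286, the smallest that 4 against 4 libraries can give. These comparisons share the asynchronous libraries. Both calls were lost with genotype as a block (exact permutation tests, adjusted p = 0.0833). The smallest unadjusted p that the blocked permutation test can give is 0.0556, so it could make no call. Both calls were also lost without any 1 of the asynchronous libraries (exact permutation tests, adjusted p from 0.0857 to 0.129). Sorted chromosomes and mitotic ESCs differed by -0.16 (exact permutation test, adjusted p = 0.886), a difference that did not hold its sign. It became 0.10 without Suv39h dn mitotic replicate 1 and 0.15 without the satellite peaks. With all lists cut to equal length it was 0.42 and passed the test (exact permutation test, adjusted p = 0.0286). That cut kept the 1746 peaks of smallest p-value in each list, the length of Suv39h dn mitotic replicate 1, so it compares the strongest peaks only. The mitotic excess over asynchronous ESCs fell to 0.43 without Suv39h dn mitotic replicate 1, to 0.44 without satellite peaks and to 0.41 with only those peaks whose summit word of 32 bases occurs once in the assembly, and the adjusted p stayed at 0.0429 in each (exact permutation tests). The sorted chromosome excess was 0.59 without satellite peaks and 0.60 with the words that occur once. It fell to 0.47 without the end of chromosome 11 and to 0.38 without the ends of chromosomes 11 and 14 (exact permutation tests, adjusted p = 0.0429 in each).

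**Figure D1:**
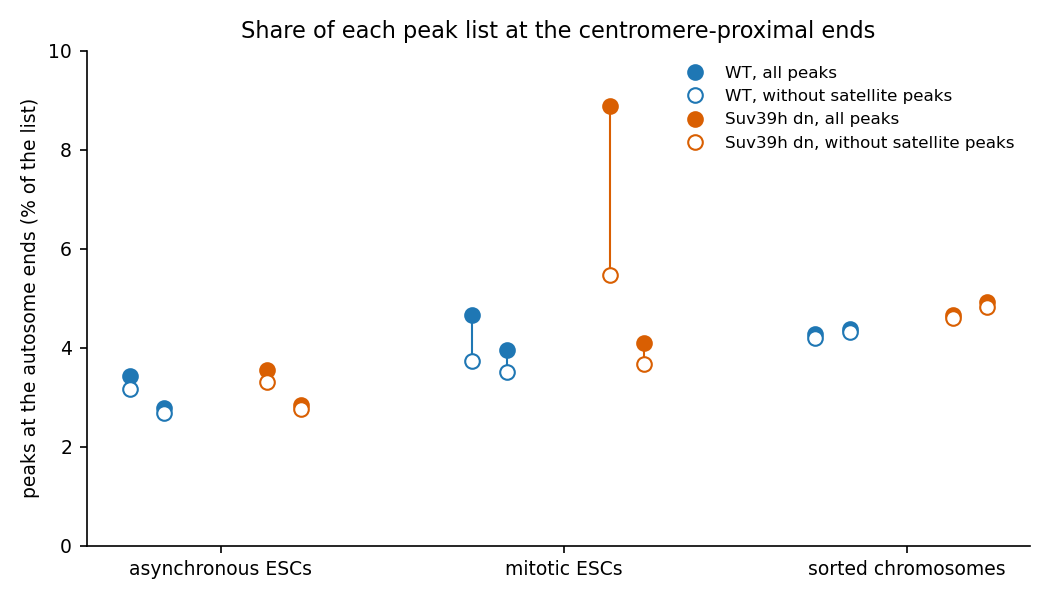
Share of each library's peak list at the centromere-proximal ends (y axis, percent of all peaks of the list) for the 3 preparations, 2 libraries per genotype. Filled points give all peaks and open points the share without satellite peaks; Suv39h dn mitotic replicate 1 dropped from 8.88% to 5.46%, and all asynchronous libraries lay below the others in both measures.

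Between genotypes the share was higher in Suv39h dn by 0.22 on the log2 scale, within the spread of the libraries (exact two-sided permutation test of the genotypes within preparations, p = 0.269). The difference was 0.04 among asynchronous, 0.49 among mitotic and 0.15 among sorted chromosome libraries, and the mitotic value was -0.07 without Suv39h dn mitotic replicate 1. In sorted chromosomes both Suv39h dn libraries lay above both WT libraries, and in the other preparations the genotypes overlapped. When genotypes were compared only between libraries of the same replicate number, Suv39h dn was higher in each of the 6 pairs. The exact permutation p was 0.0312, the smallest that this test can give. The labels name no pairs, and the pairing was a hint from the end shares of these same libraries, so this p value is no independent support. With lists cut to equal length within each preparation the difference was 0.04 (exact permutation test without the pairing, p = 0.426). Each mitotic list then held its 1746 peaks of smallest p-value. The mitotic shares were 9.05% and 8.99% for WT, against 8.88% and 8.02% for Suv39h dn, so the mitotic pairs went the other way. In the full lists without Suv39h dn mitotic replicate 1 the difference was 0.04 (exact permutation test without the pairing, p = 0.657). The number of end peaks differed by 0.00 (exact permutation test, p = 1.00), with 0.37 among asynchronous, -0.41 among mitotic and 0.04 among sorted chromosome libraries. Without Suv39h dn mitotic replicate 1, which held 155 end peaks, the count difference was 0.32 and its mitotic part 0.56, and without Suv39h dn mitotic replicate 2 the count difference was -0.32.

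The innermost megabase, below 4 Mb, held 1.12% to 1.63% of the lists of asynchronous ESCs, 1.98% to 6.93% of those of mitotic ESCs and 1.73% to 2.11% of those of sorted chromosomes. Its share differed between genotypes by 0.29 (exact permutation test, p = 0.444) and by -0.01 without Suv39h dn mitotic replicate 1. In sorted chromosomes the WT libraries had 1.78% and 1.73% and the Suv39h dn libraries 1.89% and 2.11%, without overlap, and in asynchronous ESCs the genotypes overlapped.

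Peaks were denser at the ends than on the rest of the autosomes in all 12 libraries. The ends hold 56.5 Mb of known sequence, 2.36% of the autosomal bases, with 69.3 transcription start sites (TSSs) per Mb against 52.1 elsewhere. The density ratio of ends to rest lay between 1.23 and 4.15, and its mean on the log2 scale was 0.90 (exact sign-flip permutation test over 12 libraries, p = 0.000488, the smallest possible). The higher density was present at promoters, where peaks per TSS exceeded the rest by 0.51, and away from them, where peaks over 1 kb from a TSS exceeded the rest by 0.91 per Mb (both exact permutation p = 0.000488). The promoter value was 0.23 without satellite peaks (exact permutation test, p = 0.00146), and 0.19 without the end of chromosome 9 (exact permutation test, p = 0.0254) or with summit words that occur once (p = 0.00195, exact permutation test). With peaks whose summit word occurs once the density difference was 0.60 (exact permutation test, p = 0.000488), with all bases kept in the denominator. Of 635 protein-coding genes with their start at the ends, 30.1% to 56.1% had a promoter peak in asynchronous ESCs, 5.35% to 30.7% in mitotic ESCs and 38.7% to 53.9% in sorted chromosomes. This exceeded the share of the other 20172 genes in 12 of 12 libraries, by 0.26 on the log2 scale (exact permutation test, p = 0.000488).

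In all 12 libraries the density was highest in the 0.5 Mb nearest to the gap. It did not fall evenly from there, and in every library it was higher between 8.5 Mb and 9 Mb than in the step before. Against the following 3 Mb, from 6 Mb to 9 Mb, the ends had 1.73 times as many peaks per Mb, higher in 12 of 12 libraries (0.79 on the log2 scale, exact permutation test, p = 0.000488), and 1.55 times without satellite peaks. This ratio was larger in mitotic than in asynchronous ESCs by 0.72 on the log2 scale (exact permutation test, adjusted p = 0.0429). The value was 0.44 without satellite peaks (exact permutation test, adjusted p = 0.0429), 0.43 without Suv39h dn mitotic replicate 1 (adjusted p = 0.0429, exact permutation test) and 0.28 without both, where the call was lost (exact permutation test, adjusted p = 0.0857). It was smaller in sorted chromosomes than in mitotic ESCs by -0.65 (exact permutation test, adjusted p = 0.0429), and by -0.16 without both (exact permutation test, adjusted p = 0.0857). Between sorted chromosomes and asynchronous ESCs it differed by 0.07 (exact permutation test, adjusted p = 0.429). The stretch from 6 Mb to 9 Mb held 2.99% to 3.10% of the lists of sorted chromosomes and 2.07% to 2.35% of those of asynchronous ESCs, without overlap. The telomere-proximal 3 Mb, with 15119 peaks against 17013, had a lower density than the centromere-proximal ends in 10 of 12 libraries (0.22 on the log2 scale, exact permutation test, p = 0.00586). Without satellite peaks the ends held 706 and 1525 peaks in the WT asynchronous lists, 240 in WT mitotic replicate 1 and 2222 in Suv39h dn asynchronous replicate 2. These were fewer than the 730, 1722, 244 and 2339 of the telomere-proximal 3 Mb, and the other lists held more at the ends. This difference was not tested without satellite peaks. With all peaks the ratio of the densities did not differ beyond the spread between mitotic and asynchronous ESCs (0.37, exact permutation test, adjusted p = 0.129) or between sorted chromosomes and asynchronous ESCs (0.22, adjusted p = 0.129, exact permutation test).

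**Figure D2:**
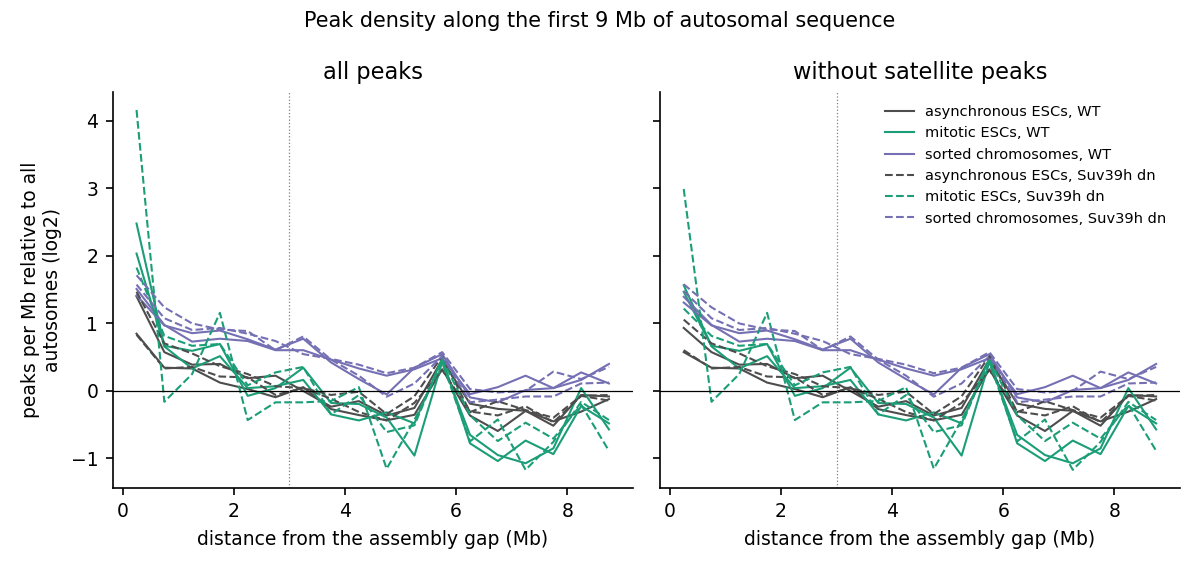
Peak density in steps of 0.5 Mb over the first 9 Mb of autosomal sequence (x axis, distance from the assembly gap in Mb; y axis, log2 of peaks per Mb relative to all autosomes of the library), 1 line per library, with all peaks on the left and without satellite peaks on the right. Every library was highest in the step nearest the gap, from 1.78 to 17.9 times its autosomal mean with all peaks, and the dotted line marks the limit of the ends.

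The satellite peaks were almost equal in number and height across the cell libraries and lower in sorted chromosomes. They numbered 59 to 74 in asynchronous ESCs, 63 to 65 in mitotic ESCs and 38 to 48 in sorted chromosomes, and most lay in the chromosome 9 block. In Suv39h dn mitotic replicate 1 they were 41.3% of all end peaks, and in the other mitotic libraries 10.9% to 20.8%. The fragments at the summit of each peak were recovered as whole numbers from the authors' fold and p-value. The median satellite summit held 74, 79, 76 and 78 fragments in asynchronous ESCs and 72, 74, 76 and 72.5 in mitotic ESCs, WT libraries given before Suv39h dn. For sorted chromosomes the WT medians were 30 and 49, against 33.5 and 52.5 for Suv39h dn. The 8 cell libraries thus stayed within 72 to 79 fragments although their background differed 2.05-fold, whereas the other end peaks had a median of 6 to 11 fragments there. Since the summits of the cell libraries did not scale with the background, they give no comparison of the genotypes. These values carry no test, because the satellite class was set after the lists were seen. The local background under the satellite peaks moved with these levels, with 18.1 to 21.7 fragments in the cells and 4.45 to 9.63 in sorted chromosomes, and its part in them was not tested.

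**Figure D3:**
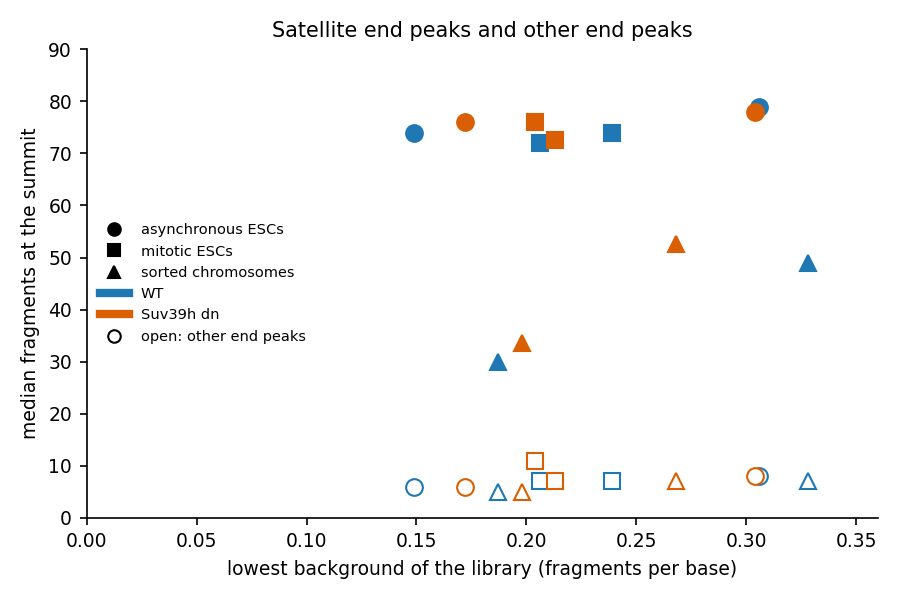
Median fragments at the summit of satellite end peaks (filled) and of other end peaks (open) on the y axis against the lowest background of each library in fragments per base on the x axis, 12 libraries. The 8 cell libraries kept 72 to 79 fragments at satellite summits over the range of backgrounds, and the 4 sorted chromosome libraries had 30 to 52.5.

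The chromosome 12 piece printed above held 135 and 133 fragments (asynchronous), 129 and 135 (mitotic), and 119 and 134 (sorted chromosomes) in the WT libraries. The Suv39h dn libraries held 132 in each asynchronous list, 134 and 138 (mitotic), and 118 and 134 (sorted chromosomes). Its summit words occurred 55 times in the assembly (median over its peaks). These numbers did not scale with the background, which ranged from 0.149 to 0.328 fragments per base, so this summit could hardly show a difference between the groups.

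The 19 ends differed widely in how many peaks they held. Over the 12 libraries the end of chromosome 11 had the most, 668 per Mb, followed by those of chromosome 8 with 437 and chromosome 9 with 436. The ends of chromosomes 3, 18 and 15 had the fewest, with 157, 160 and 163 per Mb. These sums are weighted to the longest lists, and in the 4 mitotic lists and in both asynchronous replicate 1 lists the end of chromosome 9 held the most peaks. The end of chromosome 3 holds 4 protein-coding genes and that of chromosome 11 holds 63. On chromosome 9, 627 of 1307 peaks were satellite peaks. Of all 802 windows of 3 Mb, the ends had a median of 766 peaks against 470 in the others, and 18 of the 19 ends lay above the median of the others.

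Sorted chromosomes had a higher share than asynchronous ESCs at 10 of the 19 ends at an unadjusted exact permutation p under 0.05 (52.6%), against 15.0% of all windows. They were lower at 0 of 19, against 30.2% of all windows. Mitotic ESCs were higher than asynchronous ESCs at 5 ends (26.3%), against 10.1% of all windows, and lower at 0, against 12.1%. Between sorted chromosomes and mitotic ESCs, 2 ends were higher and 2 were lower (10.5% each), against 13.3% and 16.6% of all windows, shares near the background. Suv39h dn was higher than WT at 2 ends (10.5%), against 2.74% of all windows, and lower at 1 (5.26%), against 2.24%. After Benjamini-Hochberg adjustment over the windows, 0 were called in any comparison by the exact permutation test. The smallest p that it allows is 0.0286 between preparations and 0.00926 between genotypes. The median difference of the 19 ends was 0.56 for sorted chromosomes minus asynchronous ESCs, with 15 ends above 0, and -0.14 for the other windows. For mitotic minus asynchronous ESCs it was 0.38, with 13 ends above 0, and -0.18 for the other windows.

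The end of chromosome 11 was higher in both mitotic ESCs and sorted chromosomes than in asynchronous ESCs. It held 0.246% and 0.227% of the WT asynchronous peaks and 0.335% and 0.258% of the Suv39h dn asynchronous peaks. The mitotic values were 0.539% and 0.375% for WT, against 0.745% and 0.468% for Suv39h dn. The values of sorted chromosomes were 0.531% and 0.591% for WT, against 0.548% and 0.729% for Suv39h dn. The differences from asynchronous ESCs were 0.98 and 1.17 on the log2 scale (exact permutation tests, unadjusted p = 0.0286 for each, adjusted p = 0.129 and 0.0633). The end of chromosome 9 showed the widest mitotic difference, 1.84 (unadjusted exact permutation p = 0.0286, adjusted p = 0.129) and 1.26 without Suv39h dn mitotic replicate 1, and in sorted chromosomes it differed from asynchronous ESCs by -0.22 (exact permutation test, adjusted p = 0.493).

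The end of chromosome 14, singled out after its values were seen, was higher in Suv39h dn in every preparation. In asynchronous ESCs it held 0.116% and 0.112% of the WT peaks and 0.148% and 0.135% of the Suv39h dn peaks. The mitotic values were 0.0462% and 0.0450% for WT (3 and 6 peaks), against 0.286% and 0.181% for Suv39h dn (5 and 26 peaks). The values of sorted chromosomes were 0.302% and 0.303% for WT (140 and 203 peaks), against 0.459% and 0.553% for Suv39h dn (273 and 248 peaks). The genotypes did not overlap in any preparation. The difference was 1.09 on the log2 scale (exact permutation test, p = 0.00926, adjusted over 802 windows p = 0.743), and 0.96 without Suv39h dn mitotic replicate 1. As a share of the peaks of chromosome 14 itself it was 1.08. With only peaks at q at or under 1e-05 it was 1.02, with an exact permutation p of 0.0556. Of its 1140 peaks, 94.5% had a summit word that occurs more than once in the assembly, with a median of 12 copies, against 4.93% at the end of chromosome 19. The number of copies in each line was not measured, and its part in the difference was not tested.

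**Figure D4:**
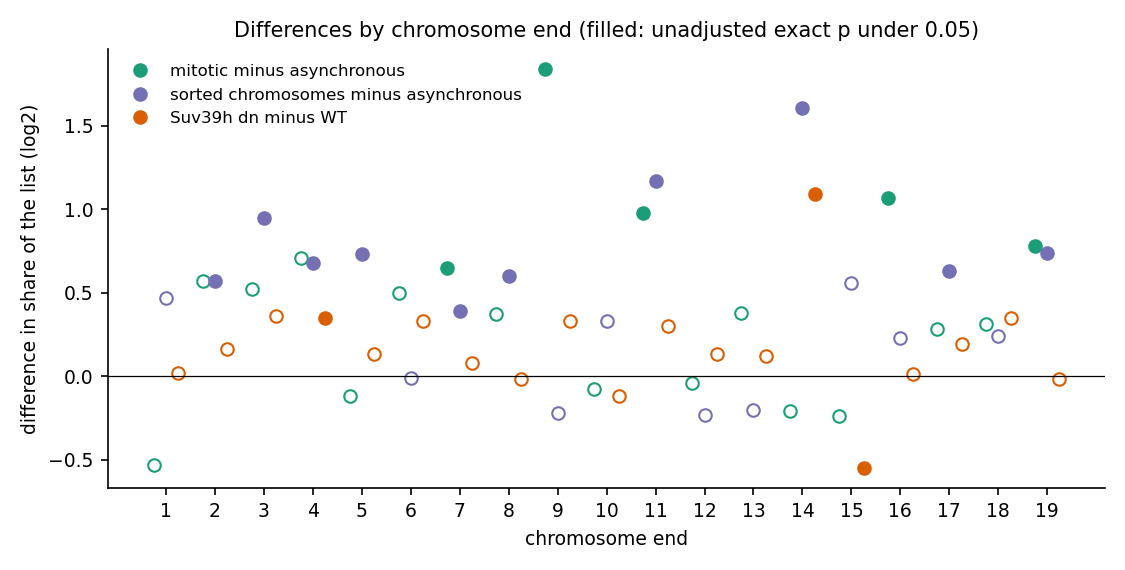
Difference in the share of the list at each of the 19 chromosome ends (x axis, chromosome; y axis, log2 difference) for mitotic minus asynchronous ESCs, sorted chromosomes minus asynchronous ESCs and Suv39h dn minus WT. Filled points had an unadjusted exact permutation p under 0.05; the end of chromosome 14 was highest for sorted chromosomes (1.61) and for Suv39h dn (1.09), and the end of chromosome 9 for mitotic ESCs (1.84).

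End peaks differed from the other autosomal peaks of the same library in their sequence. Satellite peaks were left out of these comparisons, and p values were adjusted over 9 features by the Benjamini-Hochberg method. The summit word of 32 bases occurred more than once in the assembly for 18.8% to 44.0% of end peaks and 10.8% to 23.6% of the others, higher at the ends in 12 of 12 libraries (exact permutation test, adjusted p = 0.000628). Over 50% of the bases around the summit were masked as repeats in 20.4% to 33.0% of end peaks and 10.9% to 26.6% of the others, again higher in 12 of 12 libraries. GC content within 100 bp of the summit was lower at the ends in 12 of 12 libraries, by 1.39 percentage points. Tandem repeats, with over 70% of bases identical at a shift of 2 to 60 bases, underlay 0.984% to 1.84% of end peaks in asynchronous ESCs, 2.16% to 3.75% in the mitotic ESCs other than Suv39h dn replicate 1 and 3.77% to 4.45% in sorted chromosomes. The other peaks showed the same order of asynchronous ESCs and sorted chromosomes, with 0.402% to 0.767% and 2.14% to 3.32%, and in the same 3 mitotic libraries 0.927% to 1.69%. In Suv39h dn mitotic replicate 1 both shares were higher. The motif of Esrrb, an orphan nuclear receptor of the ESC network, was searched as TNAAGGTCA on both strands within 100 bp of the summit. It was found in 0.566% to 4.40% of end peaks and in 0.458% to 1.49% of the others, higher at the ends in 10 of 12 libraries (exact permutation test, adjusted p = 0.0137). The highest value came from the 91 end peaks of Suv39h dn mitotic replicate 1, and the next was 2.92%. The share of promoter peaks, within 1 kb of a TSS, was 26.9% to 52.8% at the ends and 25.2% to 57.1% elsewhere, a mean difference of 0.04 percentage points (exact permutation test, p = 0.938) whose sign changed with the processing. Without satellite peaks it was -3.31 percentage points (exact permutation test, p = 0.0400).

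Merged over the 12 libraries, the end peaks formed 8157 regions. Of these 4878 (59.8%) were called in 1 library and 54 (0.662%) in all 12, against 63.0% and 0.154% of all 233809 regions of the merged lists. Of the 54 regions, 31 were satellite. The 4 regions that followed the chromosome 12 satellite piece in the order of mean fold are shown with CG pairs in capitals, because they carried between 18 and 108 fragments in every library. For chromosome 9 the whole region is printed, and for the others the bases around the summit.
chr9:3258805-3258933: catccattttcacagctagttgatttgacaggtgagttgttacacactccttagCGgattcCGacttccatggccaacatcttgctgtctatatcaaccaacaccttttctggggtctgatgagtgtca
chr2:5379266-5379366: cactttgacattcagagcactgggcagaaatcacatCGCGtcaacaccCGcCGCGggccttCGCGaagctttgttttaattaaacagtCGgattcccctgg
chr3:5860583-5860683: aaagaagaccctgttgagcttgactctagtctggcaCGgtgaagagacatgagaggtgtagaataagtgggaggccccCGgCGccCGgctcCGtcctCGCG
chr8:3754399-3754499: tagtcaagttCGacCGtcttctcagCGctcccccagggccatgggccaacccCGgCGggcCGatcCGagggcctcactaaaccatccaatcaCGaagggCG

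The chromosome 9 region is intergenic, 4660 bp from the start of the small RNA gene Gm27679. Its WT libraries held 62 and 72 fragments (asynchronous), 75 and 91 (mitotic), and 81 and 100 (sorted chromosomes). The same groups of Suv39h dn had 55 and 70, 72 and 93, and 86 and 103. The chromosome 2 region lies in an intron of Camk1d, a calcium-dependent kinase gene. The chromosome 3 region, 20408 bp from the nearest annotated start, and the chromosome 8 region, 5465 bp from that of Cd209a, are intergenic. The summit words of the chromosome 9 and chromosome 8 regions occurred once in the assembly, and those of chromosomes 2 and 3 occurred 2 and 3 times. In none of the 4 were the genotypes separate in every preparation. Their fragments did not scale with the background in asynchronous ESCs. At WT backgrounds of 0.149 and 0.306 fragments per base they were 62 and 72 (chromosome 9) and 63 and 73 (chromosome 2). The same libraries held 79 and 84 on chromosome 3 and 26 and 27 on chromosome 8. These summits therefore give no comparison of the genotypes.

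Few end regions were called in 1 genotype alone. In asynchronous ESCs 83 of 2775 end regions (2.99%) came from both Suv39h dn libraries but no WT library, against 2.45% of all regions, and 20 (0.721%) in WT alone, against 0.750%. In mitotic ESCs 6 of 854 (0.703%) were called in Suv39h dn alone, against 0.596%, and 16 (1.87%) in WT alone, against 2.67%. In sorted chromosomes 194 of 6128 (3.17%) were called in Suv39h dn alone, against 2.08%, and 146 (2.38%) in WT alone, against 2.73%. In the cells the share in Suv39h dn alone was near its background, and in sorted chromosomes it was the larger of the 2 at the ends and the smaller over all regions. With lists of equal length the asynchronous numbers were 40 in Suv39h dn and 38 in WT.

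The region with the largest excess of Suv39h dn over WT libraries, called in 5 Suv39h dn and 0 WT libraries, was chr14:4035471-4035576 in an intron of Gm5796. It held 6 fragments in Suv39h dn asynchronous replicate 1, 8 and 9 in the mitotic libraries and 10 in each sorted chromosome library. A region of chromosome 1, chr1:3994827-3994990, was called in 4 Suv39h dn and 0 WT libraries with 4 to 8 fragments. The largest excess of WT, 4 libraries, was shared by 2 regions. The first was chr7:3201260-3201742, 17183 bp from Mir290a of the miR-290 cluster, which encodes microRNAs abundant in ESCs. It was called in 5 WT and 1 Suv39h dn libraries, with 14 fragments in replicate 2 of both asynchronous groups. The other, chr12:4556955-4557361 in an intron of the lincRNA gene Gm46332, was called in 4 WT libraries of cells with 5 to 9 fragments and in 0 Suv39h dn libraries. A region absent from a list may hold fragments below the threshold of calling.

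Between preparations the ends differed most in sorted chromosomes. Of 8101 end regions, 660 (8.15%) were called in at least 3 of the 4 sorted chromosome libraries and in no asynchronous library, against 4.34% of all regions, and 488 (6.02%) the other way, against 7.22%. Against mitotic ESCs, 804 of 6611 (12.2%) were called in sorted chromosomes, against 8.03% of all regions, and 58 (0.877%) the other way, against 0.762%. In mitotic ESCs 1 of 2855 end regions (0.0350%) was called in at least 3 libraries and in no asynchronous library, against 0.00582%, and 296 (10.4%) the other way, against 10.1%. That 1 region was chr3:3124049-3124168, with 7 fragments in each of 3 mitotic libraries. Regions called in all 4 sorted chromosome libraries and in no asynchronous library numbered 274, and 17 were called in all 4 mitotic libraries and in no sorted chromosome library, 9 of them satellite. From each kind 1 region is shown, with CG pairs in capitals. By mean fold percentile it was number 3 of its kind for sorted chromosomes and number 1 for the cells. The sorted chromosome sequence repeats itself in tandem, so it does not stand for its kind. Without satellite peaks, tandem repeats underlay 3.77% to 4.45% of the end peaks of sorted chromosomes.
chr14:3545114-3545265 (sorted chromosomes): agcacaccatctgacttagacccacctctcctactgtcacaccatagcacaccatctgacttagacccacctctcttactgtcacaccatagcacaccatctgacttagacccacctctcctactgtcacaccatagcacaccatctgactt
chr16:3115677-3115762 (cells): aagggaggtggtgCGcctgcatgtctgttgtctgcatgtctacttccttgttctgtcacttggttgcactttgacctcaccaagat

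The chromosome 14 region, in an intron of Gm3005, held 15 and 22 fragments in the WT lists of sorted chromosomes, against 28 in each Suv39h dn library, and its summit words occurred 10 times in the assembly. Another region of this kind, chr17:5241015-5241129, lies in an intron of Arid1b and held 21 and 26 for WT, against 14 and 12 for Suv39h dn. The chromosome 16 region held 23 and 31 fragments (asynchronous) and 18 and 32 (mitotic) in WT libraries, against 19 and 32 and 32 and 28 in the Suv39h dn libraries. Satellite pieces on chromosomes 11 and 4, chr11:3103923-3104079 and chr4:3090558-3090795, followed the same pattern with 14 to 27 and 13 to 29 fragments in the cells. In asynchronous ESCs alone, chr13:4760114-4760264 was called in all 4 libraries with 7 to 19 fragments. The start of the lincRNA gene Gm5444, chr13:4771449-4771768, held 19 and 40 fragments for WT asynchronous ESCs, against 15 and 49 for Suv39h dn, and had no peak in sorted chromosomes. The start of Cldn12, a tight junction gene, held 9, 20, 8 and 21 fragments in asynchronous ESCs, had no peak in mitotic ESCs and was called in 3 sorted chromosome libraries.

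Of 32 named genes at the ends, 12 had a promoter peak in at least 3 asynchronous libraries, 5 in at least 3 mitotic libraries and 23 in at least 3 sorted chromosome libraries. By the same count, 36.9%, 13.7% and 40.2% of the 635 protein-coding genes at the ends had one in that order. For the other protein-coding genes the shares were 32.5%, 10.8% and 31.0%. The order in the named genes and in the groups counted below was thus also that of all protein-coding genes at the ends. In the other protein-coding genes asynchronous ESCs stood slightly above sorted chromosomes. The named genes were not tested against these shares. The promoter of Klf6, a Krüppel-like transcription factor gene, was open in all 12 libraries. Its WT libraries held 11 and 28 fragments (asynchronous) and 12 and 13 (mitotic), its Suv39h dn libraries 13 and 32 and 9 and 17 in that order, and the sorted chromosome libraries 7 to 12. Lif, the cytokine that keeps mouse ESCs undifferentiated and was present in the medium, had a promoter peak in sorted chromosomes alone, with 9 and 19 fragments for WT, against 12 and 19 for Suv39h dn. A stretch of 200 bases just upstream of both RefSeq starts (GRCm38.p6, plus strand) are shown to contrast these patterns. Both have a GC content of 62.5%, and CG pairs, in capitals, number 19 at Klf6 and 5 at Lif.
Klf6 chr13:5861239-5861438: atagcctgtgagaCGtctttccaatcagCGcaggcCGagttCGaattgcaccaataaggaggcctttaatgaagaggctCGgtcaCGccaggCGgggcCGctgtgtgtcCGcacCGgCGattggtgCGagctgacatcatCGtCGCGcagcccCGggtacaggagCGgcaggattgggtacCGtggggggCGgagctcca
Lif chr11:4257318-4257517: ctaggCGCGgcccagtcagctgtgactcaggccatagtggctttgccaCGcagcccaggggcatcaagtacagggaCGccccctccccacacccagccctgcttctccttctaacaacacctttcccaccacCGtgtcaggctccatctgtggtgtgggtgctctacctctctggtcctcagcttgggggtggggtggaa

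Suv39h2, the targeted gene that lies at the end of chromosome 2, had a promoter peak in 4 WT libraries, with 8 fragments in asynchronous replicate 2, 8 in mitotic replicate 1 and 5 and 11 in the sorted chromosomes. It had one in both Suv39h dn sorted chromosome libraries, with 4 and 7 fragments. An open promoter does not report on a deletion elsewhere in the gene, so it is no check of the labels. Among the 10 chromatin and DNA methylation genes, 3 had a peak in at least 3 asynchronous libraries, 1 in at least 3 mitotic libraries and 8 in at least 3 sorted chromosome libraries. Asxl2, a polycomb-associated gene, was open in 11 libraries with 6 to 19 fragments. Kdm2a, an H3K36 demethylase gene that binds CpG islands, was open in 9 libraries. Crebbp, which encodes a histone acetyltransferase, was open in the 4 sorted chromosome libraries alone, with 6 to 9 fragments. Dnmt3a, a de novo DNA methyltransferase gene, had a peak in 3 libraries.

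Of the 12 stem cell and signalling genes, 7, 4 and 10 met the same count for the 3 preparations in that order. Nf2, a tumour suppressor gene of the Hippo pathway, was open in all 12 libraries with 5 to 31 fragments, and Plag1, a zinc finger gene, in 11 with 5 to 34. Insr, the insulin receptor gene, and Xbp1, a factor of the unfolded protein response, were each open in 10 libraries. Cdk6, a G1 kinase gene, was open in all asynchronous and sorted chromosome libraries and in 0 mitotic libraries. Mir295 of the miR-290 cluster had a peak in 3 mitotic libraries with 10 to 12 fragments and in no sorted chromosome library. The lineage genes Sox17, an endoderm factor, Esr1, the oestrogen receptor gene, Col1a2, a fibroblast collagen gene, and Fosl1, an AP-1 subunit gene, were each open in all 4 sorted chromosome libraries. Esr1 had 7 to 12 fragments there and no peak in the cells. The imprinted neighbours Peg10 and Sgce and the nuclear lncRNA Neat1 had no peak within 1 kb of a start in any library, and Malat1 had one in WT mitotic replicate 1. No named gene was called in both libraries of 1 genotype and in neither of the other in all 3 preparations.

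**Figure D5:**
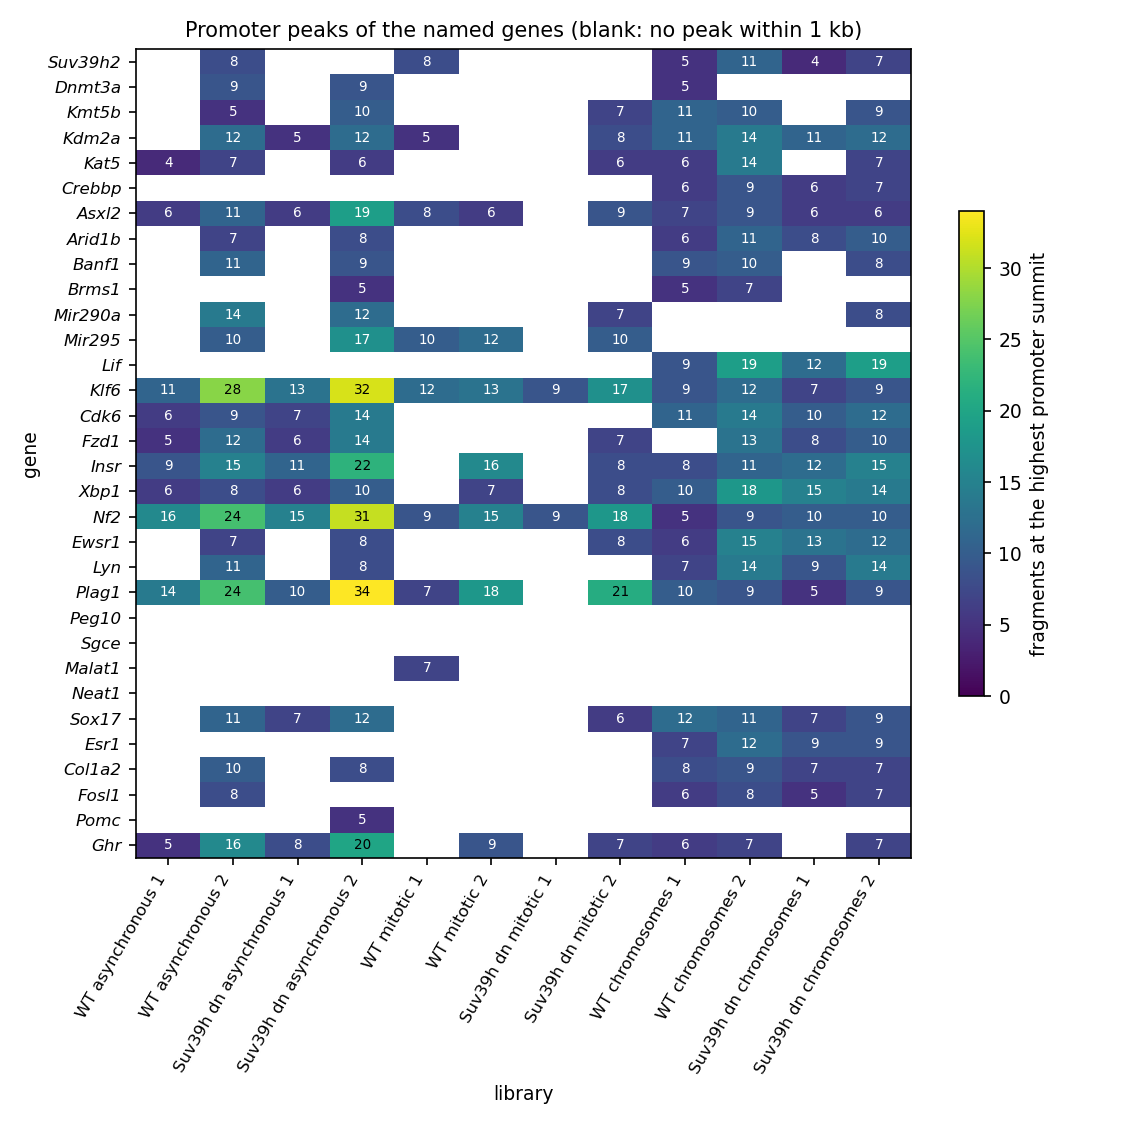
Fragments at the highest summit within 1 kb of a start of each of the 32 named genes (rows) in each of the 12 libraries (columns); blank cells had no peak. Klf6 and Nf2 were filled in all 12 libraries, and Lif, Crebbp and Esr1 in the 4 sorted chromosome libraries alone.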

How the data were processed

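ATAC-seq was analysed in 12 libraries grouped by the sample labels. The authors trimmed reads with Trim Galore 0.4.4, aligned them with bowtie2 2.2.9 to mm10, used SAMtools 1.2 and Picard, removed duplicate, improper and mitochondrial pairs, shifted the ends and kept fragments under 100 bp with deepTools, and ran MACS2 on every library separately. Their Methods state a removal of blacklisted peaks, which was not tested in the lists. Per the deposited lists, each peak has a score, a fold enrichment ratio, a p-value and a q-value, both given as −log10, with a smallest −log10 q of 1.30. Depth is not part of a peak list. Summit fragments, as whole numbers, and the background under them were recovered from the fold and the p-value for 100% of peaks, within 0.002 of the −log10 p.

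Peaks were set against GRCm38 and GENCODE with Python 3.11.15, NumPy 2.4.6, pandas 2.3.3 and SciPy 1.17.1. Shares were compared as log2 values by exact two-sided permutation tests, genotypes within preparations, and windows used a pseudocount of 0.5. Same-numbered libraries deviated together over the 19 ends (r of 0.53, 0.38 and 0.66 in the 3 preparations), so the numbers were taken as pairs, a hint from the data. Named genes came from a fixed list, and regions from the largest excess of libraries called. Members, lists and tests were chosen with earlier results of these data known. Satellite bins, summit words and tandem repeats were added after the lists were seen. The window tests recovered planted changes in simulated data. Those changes were larger than most differences given here, and the simulated libraries differed by counting error only. How well smaller changes are found between libraries as uneven as these was not tested. Not every region that the rule names is described.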

Additional observations from a re-analysis of the deposited data

How the results depend on the processing

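The higher end shares of mitotic ESCs and sorted chromosomes over asynchronous ESCs kept their direction under every alternative run. With genotype as a block both lost the call, at 0.70 and 0.54 with an adjusted exact permutation p of 0.0833, where the smallest unadjusted p was 0.0556. Leaving out 1 library gave 0.43 to 0.82 and 0.48 to 0.60, with adjusted p of 0.0429 to 0.129 and 0.0429 to 0.0857. The difference of sorted chromosomes from mitotic ESCs turned to 0.42 with equal list lengths, 0.01 with an end below 8 Mb, 0.15 without satellite peaks, 0.19 with summit words that occur once, 0.12 without the end of chromosome 9 and 0.09 as a mean share of each autosome's own peaks, and lay between -0.28 and 0.10 when 1 library was left out. With the replicate block, whose pairs were a hint from the data, the genotype difference of 0.22 passed the test (exact permutation p = 0.0312). The block changed no other call. The genotype difference lay between 0.04 and 0.41 without 1 library, and that of the innermost megabase between -0.01 and 0.59. The promoter share difference turned to -1.43 at q at or under 1e-05, -2.36 with equal lengths, -0.94 with an end below 8 Mb, -2.25 at 500 bp, -3.31 without satellite peaks, -0.43 with words that occur once and -3.19 without the end of chromosome 9, and was -0.34 to 0.43 without 1 library. The cause of these turns was not tested.

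Counts depended on the threshold. At q at or under 1e-05, Suv39h dn was higher at 0 ends and lower at 0, and sorted chromosomes were higher than mitotic ESCs at 1. With equal lengths Suv39h dn was higher at 4 ends, mitotic ESCs were higher than asynchronous ESCs at 3, and sorted chromosomes were higher than mitotic ESCs at 6 and lower at 5. In 57 windows of 1 Mb, mitotic ESCs and sorted chromosomes were each lower than asynchronous ESCs at 2, and sorted chromosomes were higher than mitotic ESCs at 10. Regions called in Suv39h dn or WT alone at the stricter q numbered 22 and 6 (asynchronous), 3 and 6 (mitotic), and 40 and 15 (sorted chromosomes), and with equal lengths 40 and 38 (asynchronous). Peak lists hold no reads below the threshold of calling, which limits every statement of absence.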

Other observations

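The end of the X chromosome was not part of the comparisons. Below 6 Mb the WT libraries had 4 and 6 peaks (asynchronous), 2 and 2 (mitotic), and 34 and 40 (sorted chromosomes). The Suv39h dn libraries had 5 and 10, 2 and 2, and 51 and 24 in the same order. As a share of the peaks of the X chromosome this was 0.350% to 0.656% in asynchronous ESCs and 3.11% to 3.65% in sorted chromosomes. In mitotic ESCs it was 0.654% to 6.90%, the highest value resting on 29 peaks of the chromosome in Suv39h dn replicate 1. The sorted chromosome libraries did not overlap with the asynchronous libraries.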
